A study of Mus musculus with 8 samples.

Results

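The fatty acid-binding protein family was followed across early mouse development through 7 genes, Fabp1 to Fabp7, which are 7 of the 23234 genes listed in each library. The members were taken by gene symbol, and the family was picked on its FPKM values in these same embryos, which were already known. Their levels, differences and adjusted p-values are therefore given as a description and are not used as support for anything. Of the 7 members, 6 passed the filter on low values and were among the 13549 genes tested, while Fabp1 did not pass.

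Fatty acid-binding proteins are small cytosolic proteins that fold into a barrel and hold a hydrophobic ligand inside, most often a long-chain fatty acid. They carry these poorly soluble molecules between membranes, mitochondria, lipid droplets and the nucleus, where some members hand ligands to nuclear receptors of the peroxisome proliferator-activated receptor (PPAR) class. Each member is known by the adult tissue where it is abundant: Fabp1 by the liver, Fabp2 by the small intestine, Fabp3 by heart and skeletal muscle, Fabp4 by adipocytes and macrophages, Fabp5 by the epidermis, Fabp6 by the ileum and Fabp7 by the developing brain. Preimplantation embryos hold stored lipid and use fatty acids as one of their fuels.

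The study asked what the absence of Tet3, an enzyme that oxidizes 5-methylcytosine, from the oocyte does to the embryo that follows. Tet3-null oocytes came from superovulated females with 1 floxed and 1 null Tet3 allele and a transgene, Zp3-Cre, that acts in the growing oocyte. Wild-type oocytes came from superovulated females homozygous for the floxed allele (f/f), and the labels do not say whether these carried Cre. For the strain and age of the females, the sources used here give nothing. All oocytes were fertilized in vitro in HTF medium by sperm of adult CAST/EiJ males, and zygotes with 2 pronuclei were cultured in KSOM medium. Every embryo therefore received a paternal Tet3 allele, and Tet3-null refers to the oocyte alone. The 4 groups were wild-type and Tet3-null 2-cell embryos, collected as pools of 10 at 30 h, and wild-type and Tet3-null blastocysts, collected as pools of 7 at 96 h, with 2 libraries per group. Nothing in the labels ties replicate libraries to different females or collection days, so a p-value here reflects the spread between these libraries and no more, and that spread may be technical.

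Expression is given in FPKM, sequenced fragments divided by the length of the gene and by the depth of the library, so levels can be compared between genes. Between 10607 and 11660 genes per library reached 1 FPKM, replicate libraries of a group correlated with r between 0.959 and 0.984, and the read totals are unknown. Tet3 itself, the targeted gene, measured 10.8 and 7.54 FPKM in wild-type 2-cell libraries and 3.29 and 4.41 in Tet3-null ones, and at most 0.957 in blastocysts. Its 2-cell difference missed the threshold (adjusted p = 0.069, limma). Summed markers followed the labelled stages: 8 oocyte genes summed to 1523 FPKM or more in each 2-cell library and to at most 2.23 in each blastocyst library, and 12 trophectoderm genes summed to 70.5 to 125 and 3211 to 5193. Of other cells, 8 blood cell markers summed to 0.997 to 6.09 FPKM per library, with Hbb-b1 at 0 in all 8 libraries and Ptprc in 7 of them. The 2-cell sums were mostly Cd79a, at 1.22 to 3.79 FPKM, and Lyz2. Lyz2 measured 2.08 and 1.58 FPKM in wild-type against 0.184 and 0.713 in Tet3-null 2-cell libraries. The 13 cumulus and granulosa cell markers summed to 23.9 to 42.3 FPKM in 2-cell and 7.72 to 10.8 in blastocyst libraries, mostly Tnfaip6 and Amhr2. Amh, Inha and Lhcgr were at 0 in all 4 of the 2-cell libraries. Amhr2, Cyp19a1 and Foxl2 were lower in Tet3-null 2-cell libraries without overlap, and the others overlapped. Cyp19a1 measured 0.507 and 0.765 FPKM in wild-type against 0.223 and 0.0203 in Tet3-null 2-cell libraries. Foxl2 measured 0.457 and 0.111 against 0 and 0. Among all genes tested, 34.9% were lower without overlap. Because the libraries are bulk pools, fewer cells of a type and less RNA per cell cannot be told apart in any value below.

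Reference promoter sequences are shown for Fabp3, which rose most from the 2-cell embryo to the blastocyst, for Fabp7, which ended near 0, and for Fabp6, which had the lowest level relative to wild type in Tet3-null 2-cell embryos, so that the members that moved apart can be compared. Each is the 250 bases before the annotated start, 5′ to 3′ on the gene's strand, from RefSeq on GRCm38.p6, in lower case with every CG dinucleotide (CpG), the site at which cytosine is methylated and oxidized, in capitals. Fabp3 lies on the plus strand at chr4:130308488-130308737, Fabp6 on the minus strand at chr11:43601563-43601812 and Fabp7 on the plus strand at chr10:57784673-57784922.
Fabp3: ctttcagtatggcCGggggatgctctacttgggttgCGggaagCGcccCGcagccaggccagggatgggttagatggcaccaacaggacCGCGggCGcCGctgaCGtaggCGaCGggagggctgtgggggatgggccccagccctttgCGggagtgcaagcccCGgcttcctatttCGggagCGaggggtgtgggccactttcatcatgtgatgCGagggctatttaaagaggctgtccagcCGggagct
Fabp6: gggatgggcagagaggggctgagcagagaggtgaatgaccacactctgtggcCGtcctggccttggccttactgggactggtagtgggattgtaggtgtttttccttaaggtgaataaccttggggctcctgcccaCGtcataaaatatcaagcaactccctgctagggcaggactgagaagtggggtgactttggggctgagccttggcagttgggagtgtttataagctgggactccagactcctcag
Fabp7: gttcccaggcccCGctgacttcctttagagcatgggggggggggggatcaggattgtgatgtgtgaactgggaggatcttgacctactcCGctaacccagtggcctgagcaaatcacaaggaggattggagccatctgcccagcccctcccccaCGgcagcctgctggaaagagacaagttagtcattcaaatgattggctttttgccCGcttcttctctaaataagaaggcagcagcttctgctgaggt

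Counted in these windows, the Fabp3 promoter held 17 CpGs with a GC content of 64.8%, the Fabp7 promoter held 4 and the Fabp6 promoter held 2. The promoters of Fabp1 and Fabp2 held 2 and 1. Over 32851 RefSeq promoters of the same length the median was 6 CpGs and the quartiles were 2 and 16. Fewer CpGs than in Fabp3 were found in 76.5% of them, fewer than in Fabp7 in 37.8% and fewer than in Fabp6 in 18.8%. Fabp3 was thus the CpG-rich member of the 5 with a window in the table. No methylation was measured in these libraries, and the counts describe the reference sequence only.

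Short motifs were searched on both strands of the same windows. The TATA-type hexamer TATAAA, which occurs in 12.4% of all windows, was found in Fabp6 on the reverse strand, with its first base 29 bases before the start, and in Fabp1 on the forward strand at 30 bases before the start. CCAAT, found in 33.8% of windows, occurred 2 times in Fabp7 and 1 time in Fabp2. AGGTCA, the core letters bound by many nuclear receptors, is held by 14% of windows and was present in Fabp1 and Fabp7. Repeats of it with 1 base between them (AGGTCANAGGTCA, the arrangement that PPAR partners recognize, overlapping the single AGGTCA) occur in 0.0335% of windows, or 11 promoters, and in none of these 5. GGGCGG, found in 32.7% of windows, was also in none of the 5. A match or its absence describes the letters of this window only.

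Fabp3, the heart-type protein that serves fatty acid delivery to mitochondria in muscle, went from a low level at the 2-cell stage to one of the most abundant messages of the blastocyst. It measured 13.5 and 17.6 FPKM in wild-type 2-cell libraries and 10.6 and 13.2 in Tet3-null ones. In blastocysts it measured 7003 and 8119 FPKM in wild-type libraries and 6526 and 6184 in Tet3-null ones. Every blastocyst library stood far above every 2-cell library. The means were 15.6 ± 2.86 and 7561 ± 789 FPKM in wild type (SD, n = 2), a 486-fold rise, and 11.9 ± 1.88 and 6355 ± 242 in Tet3-null embryos, a 535-fold rise. On the log2(FPKM + 1) scale used for all fits, these rises were 8.84 and 8.95 (SE 0.17 each, adjusted p = 1.68e-07 and 1.33e-07, limma).

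In the blastocyst libraries Fabp3 ranked between 7 and 11 among all genes by FPKM, against 3765 to 4656 in the 2-cell libraries. On the log2(FPKM + 1) scale 2 genes rose more in each genotype. That ranking depends on the scale: Capg, for example, rose 2566-fold in wild-type and 9811-fold in Tet3-null embryos, from values near 0. Fabp3 alone made up 93.1 to 95.3% of the summed FPKM of the 7 members in blastocysts and 8.52 to 16.2% in 2-cell embryos. The Fabp3 transcript shares 29.2% of its 50-base stretches with the annotated copy Fabp3-ps1, and the sources used here do not state how such reads were assigned, so part of its value is uncertain.

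Between genotypes Fabp3 was lower in Tet3-null embryos at both stages without overlap of the libraries, by 1.31-fold at the 2-cell stage and 1.19-fold in blastocysts. The log2 differences were −0.36 (SE 0.17, adjusted p = 0.26) and −0.25 (SE 0.17, adjusted p = 1), and neither passed the test. The summed trophectoderm markers moved the same way in blastocysts, at 3518 and 3211 FPKM in Tet3-null libraries against 5193 and 4895 in wild-type ones. Most of each sum was Krt18, at 2170 and 1985 FPKM in Tet3-null against 3138 and 2966 in wild-type blastocyst libraries. Of these 12 genes, 8 were lower in Tet3-null blastocysts without overlap and 1, Dab2, was higher, and none was at 0 in a blastocyst library. Among all genes tested, 25.3% were lower and 19% higher without overlap. The part of the trophectoderm markers in the Fabp3 difference was not tested.

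**Figure D1:**
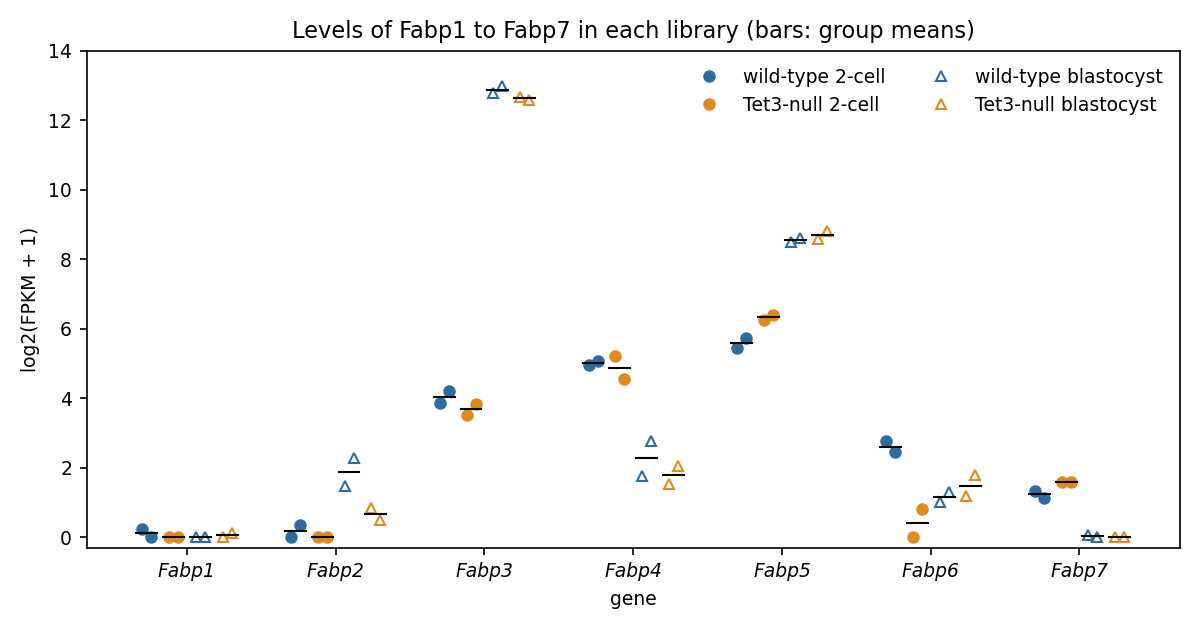
Levels of the 7 members in each of the 8 libraries, as log2(FPKM + 1) on the y axis, with the genes along the x axis, 1 point per library, colour for the oocyte genotype, filled circles for 2-cell embryos, open triangles for blastocysts and a bar at each group mean. Fabp3 and Fabp5 are higher in blastocysts, Fabp4 and Fabp7 are higher at the 2-cell stage, and Fabp6 is lowest in the Tet3-null 2-cell libraries.

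Fabp5, the epidermal-type protein that can carry ligands to the nuclear receptor PPAR delta, was the most abundant member at the 2-cell stage and came after Fabp3 in blastocysts. It measured 42.5 and 52.1 FPKM in wild-type 2-cell libraries and 75.1 and 83.9 in Tet3-null ones. In blastocysts it measured 358 and 392 FPKM in wild-type libraries and 383 and 452 in Tet3-null ones. The genotypes did not overlap at the 2-cell stage, where Tet3-null libraries were higher, and they overlapped in blastocysts. The 2-cell means were 47.3 ± 6.75 and 79.5 ± 6.22 FPKM (SD, n = 2), 1.68-fold higher in Tet3-null embryos, and the log2 difference of 0.74 (SE 0.16) missed the threshold (adjusted p = 0.0573, limma). In blastocysts the means were 375 ± 24.5 and 418 ± 48.7 FPKM, with a log2 difference of 0.15 (SE 0.16, adjusted p = 1).

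The change of the genotype difference between stages was −0.59 for Fabp5 (SE 0.22, adjusted p = 0.311). From the 2-cell stage to the blastocyst, Fabp5 rose 7.93-fold in wild-type and 5.25-fold in Tet3-null embryos, with log2 changes of 2.97 and 2.38 (SE 0.16 each, adjusted p = 5.18e-06 and 1.21e-05, limma). At the 2-cell stage Fabp5 made up 45.3 and 48% of the members' summed FPKM in wild-type libraries and 60.6 and 68.6% in Tet3-null ones. Of its 50-base stretches, 21.1% are shared with 5 other annotated genes, mostly Gm6166 with 19.6%, so its values are uncertain in the same way as those of Fabp3. The 2-cell difference of Fabp5 passed the threshold after quantile normalization (0.93, adjusted p = 0.0473) and without Tet3-null 2-cell replicate 1 (0.82, adjusted p = 0.0219), and its adjusted p ranged from 0.0219 to 0.376 over the alternatives.

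Fabp4, the adipocyte-type protein that partners the nuclear receptor PPAR gamma and hormone-sensitive lipase in fat cells, moved the opposite way to Fabp3 and Fabp5 with stage. It measured 30.3 and 32.9 FPKM in wild-type 2-cell libraries and 36.2 and 22.4 in Tet3-null ones, and the genotypes overlapped. In blastocysts it measured 2.41 and 5.85 FPKM in wild-type libraries and 1.88 and 3.14 in Tet3-null ones, again with overlap. All 4 of the 2-cell libraries lay above all 4 blastocyst libraries, and 89.3% of all genes in wild-type and 86.1% in Tet3-null embryos likewise did not overlap between stages. Fabp4 fell 7.65-fold in wild-type embryos, by 2.75 on the log2 scale (SE 0.38, adjusted p = 0.00045), and 11.7-fold in Tet3-null embryos, by 3.09 (SE 0.38, adjusted p = 0.000239). Its genotype differences were −0.14 at the 2-cell stage (adjusted p = 0.856) and −0.49 in blastocysts (adjusted p = 1). The first of these changed sign with the scaling, to 0.10 with median-of-ratios factors and 0.03 with quantile normalization. The adipocyte hormone gene Adipoq measured 2.99 and 2.91 FPKM in wild-type against 0.15 and 0 in Tet3-null 2-cell libraries. Lep, also an adipocyte hormone gene, was listed at 0 in both wild-type and at 0.0675 and 0 in Tet3-null 2-cell libraries. The part of adipocyte RNA in the Fabp4 values was not tested.

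Fabp7, the brain-type protein of radial glia, was low at the 2-cell stage and near 0 in blastocysts. It measured 1.55 and 1.18 FPKM in wild-type against 2.01 and 1.99 in Tet3-null 2-cell libraries, without overlap. In blastocysts it was listed at 0.0508 and 0 FPKM in wild-type and at 0 in both Tet3-null libraries. Fabp7 passed the filter through its 2-cell libraries alone. The falls with stage were 1.20 and 1.58 on the log2 scale (SE 0.16 each, adjusted p = 0.000426 and 9.8e-05). The 2-cell genotype difference was 1.47-fold, or 0.35 on the log2 scale (SE 0.16, adjusted p = 0.251), and did not pass. A gene listed at 0 has no stated depth behind it here. The 8 genes checked that every cell uses were above 0 in all libraries. That cannot tell how well a gene near 1 FPKM is detected.

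Fabp6, the ileal protein gastrotropin whose main ligands are bile acids, was the member whose genotype difference passed the test. It measured 5.78 and 4.51 FPKM in wild-type 2-cell libraries and was listed at 0 and 0.771 in Tet3-null ones. Both wild-type libraries stood well above both Tet3-null libraries. The means were 5.15 ± 0.894 and 0.386 ± 0.545 FPKM (SD, n = 2), and the log2 difference was −2.20 (SE 0.33, adjusted p = 0.0351, limma). Only 44 of the tested genes had a lower 2-cell difference. In blastocysts Fabp6 measured 1.01 and 1.49 FPKM in wild-type against 1.28 and 2.46 in Tet3-null libraries, which overlap, with a log2 difference of 0.33 (SE 0.33, adjusted p = 1).

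The genotype difference of Fabp6 thus had opposite signs at the 2 stages, and the change between them was 2.53 on the log2 scale (SE 0.47). That change did not pass over all genes (adjusted p = 0.123). With stage, Fabp6 fell 4.12-fold in wild-type embryos (log2 change −1.45, SE 0.33, adjusted p = 0.00568) and was 4.84-fold higher in Tet3-null blastocysts than in Tet3-null 2-cell embryos (log2 change 1.08, SE 0.33, adjusted p = 0.0212). Both stage values share the 2-cell libraries with the genotype difference. No 50-base stretch of the Fabp6 transcript is shared with another annotated gene.

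The 2-cell call of Fabp6 rests on few libraries and low values. It was lost in 11 of 15 alternatives, with adjusted p from 0.0139 to 0.376 over all of them, while the difference stayed negative in each, between −4.14 and −1.79. Without wild-type 2-cell replicate 1 or 2 the adjusted p was 0.112 and 0.121, and without a blastocyst library it was 0.0904 to 0.103. Without Tet3-null 2-cell replicate 1, the library at 0, it was 0.0139, and the change between stages then passed (2.11, adjusted p = 0.0292). The 9 markers of adipocytes, gut, liver and endothelium summed to 30.58 and 25.35 FPKM in wild-type against 20.13 and 24.63 in Tet3-null 2-cell libraries. Most of this was Vil1, which marks intestinal epithelium, at 16.8 to 21.2 FPKM in 2-cell libraries and 0.208 to 0.647 in blastocysts. Apoa1, of the same 9, was at 0 in both wild-type and at 0.638 and 1.42 in Tet3-null 2-cell libraries. Adipoq, Pecam1 and Cdh5 were lower in Tet3-null 2-cell libraries without overlap. Wild-type against Tet3-null values were 2.99 and 2.91 against 0.15 and 0 FPKM for Adipoq. They were 5.45 and 4.12 against 1.58 and 3.46 for Pecam1, and 0.309 and 0.344 against 0.144 and 0.0731 for Cdh5. Vil1, Lep, Alb, Ttr and Myh6 overlapped between the genotypes. The part of such cells in the Fabp6 difference was not tested. The 9 markers of the 2-cell stage summed to 1470 and 2013 FPKM in Tet3-null libraries against 1370 and 1118 in wild-type ones. Of the 9, 2 were higher in Tet3-null libraries without overlap, 2 were lower and 0 were at 0 in a 2-cell library. Among all genes tested, 12.6% were higher and 34.9% lower without overlap. The part of the 2-cell stage markers in the 2-cell differences of Fabp5, Fabp6 and Fabp7 was not tested.

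Fabp2, the intestinal-type protein, was low everywhere and highest in wild-type blastocysts. It was listed at 0 and 0.271 FPKM in wild-type 2-cell libraries and at 0 in both Tet3-null ones. In blastocysts it measured 1.81 and 3.89 FPKM in wild-type against 0.786 and 0.415 in Tet3-null libraries, without overlap. The means were 2.85 ± 1.47 and 0.600 ± 0.262 FPKM (SD, n = 2), 4.75-fold lower in Tet3-null blastocysts, but the log2 difference of −1.22 (SE 0.29) did not pass (adjusted p = 0.515, limma). Fabp2 reached 1 FPKM only in wild-type blastocysts and passed the filter through that group alone, so its differences against that group rest on this selection. With stage, Fabp2 rose by 1.72 on the log2 scale in wild-type embryos (SE 0.29, adjusted p = 0.00128), and the value in Tet3-null embryos was 0.67 (SE 0.29, adjusted p = 0.0711). The latter passed the threshold in 5 of 15 alternatives, with values from 0.50 to 2.76 and adjusted p from 0.0116 to 0.276 over all of them. Fabp1, the liver-type protein, was listed at 0 in 6 of 8 libraries, with 0.182 FPKM in wild-type 2-cell replicate 1 and 0.0867 in Tet3-null blastocyst replicate 2, and was not tested.

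The order of the members by level differed between stages and, for Fabp6 and the members next to it, between genotypes. In both 2-cell groups the order began with Fabp5, Fabp4 and Fabp3, and neighbours among these 3 did not overlap. Fabp6 came above Fabp7 in wild-type and below it in Tet3-null 2-cell embryos, again without overlap. In blastocysts Fabp3 came first and Fabp5 next, both without overlap. Below them Fabp4 overlapped Fabp2 in wild-type and Fabp6 in Tet3-null libraries. The summed FPKM of the members was 93.9 and 109 in wild-type against 124 and 122 in Tet3-null 2-cell libraries, and 7367 and 8523 against 6913 and 6642 in blastocysts. That is 0.0156 to 0.0196% of all FPKM at the 2-cell stage and 0.695 to 0.902% in blastocysts.

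**Figure D2:**
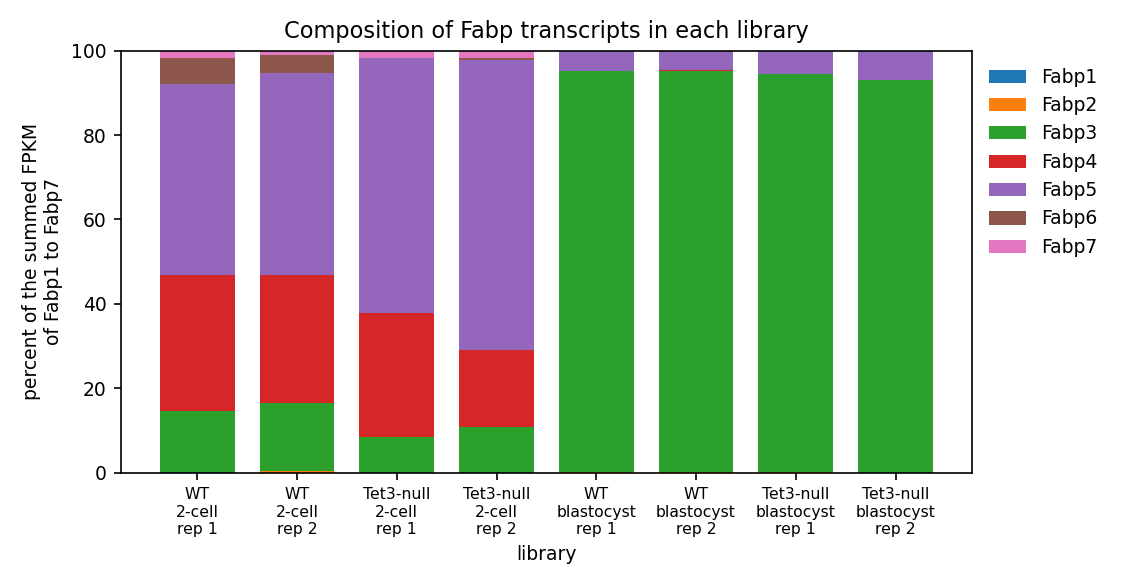
Share of the members' summed FPKM, in percent, taken by each member in each of the 8 libraries, as stacked bars from 0 to 100. Fabp5 takes 45.3 to 68.6% at the 2-cell stage, and Fabp3 takes 93.1 to 95.3% in blastocysts.

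Across the 5 comparisons, the members were called as follows at an adjusted p below 0.05 (limma), beside the share called among all genes tested. Between genotypes, 1 of 6 members was called at the 2-cell stage, Fabp6, against 2.72% of all genes (0.613% higher and 2.1% lower), and 0 were called in blastocysts, against 0.0664%. For the change of the genotype difference between stages 0 were called, against 0.14%. At an unadjusted p below 0.05, the 2-cell stage had 2 of 6 members against 23.7% of all genes. Blastocysts had 1 against 5.46% and the change between stages had 3 against 14.4%. The 1 in blastocysts was Fabp2, which is also among the 3. It passed the filter through wild-type blastocysts alone, so its place in these counts rests on that selection. From the 2-cell stage to the blastocyst, 6 of 6 were called in wild-type embryos, 3 higher (Fabp2, Fabp3, Fabp5) and 3 lower (Fabp4, Fabp6, Fabp7), where 74.3% of all genes were called, 35.8% higher and 38.4% lower. Of the same 6, in Tet3-null embryos 5 were called, 3 higher (Fabp3, Fabp5, Fabp6) and 2 lower (Fabp4, Fabp7), where 74% were, 38.9% higher and 35.1% lower. With so large a share of all genes called between stages, these counts say little about the members.

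Counted by overlap of the libraries, Tet3-null and wild-type 2-cell embryos did not overlap for 4 of 6 members, with Fabp5 and Fabp7 higher and Fabp3 and Fabp6 lower in Tet3-null ones. Among all genes tested the share without overlap was 47.5%, made up of 12.6% higher and 34.9% lower. In blastocysts 2 of 6 did not overlap, Fabp2 and Fabp3, both lower, against 44.2% of all genes, made up of 19% higher and 25.3% lower. Fabp2 passed the filter through wild-type blastocysts alone, so its lack of overlap and its direction here were fixed by that selection. The median 2-cell difference over all genes was −0.17 on the log2 scale, and over 6 members the differences ranged from −2.20 to 0.74. Fabp4 (−0.14) lay near that median, and the −0.17 of Fabp2 comes from a single value above 0.

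**Figure D3:**
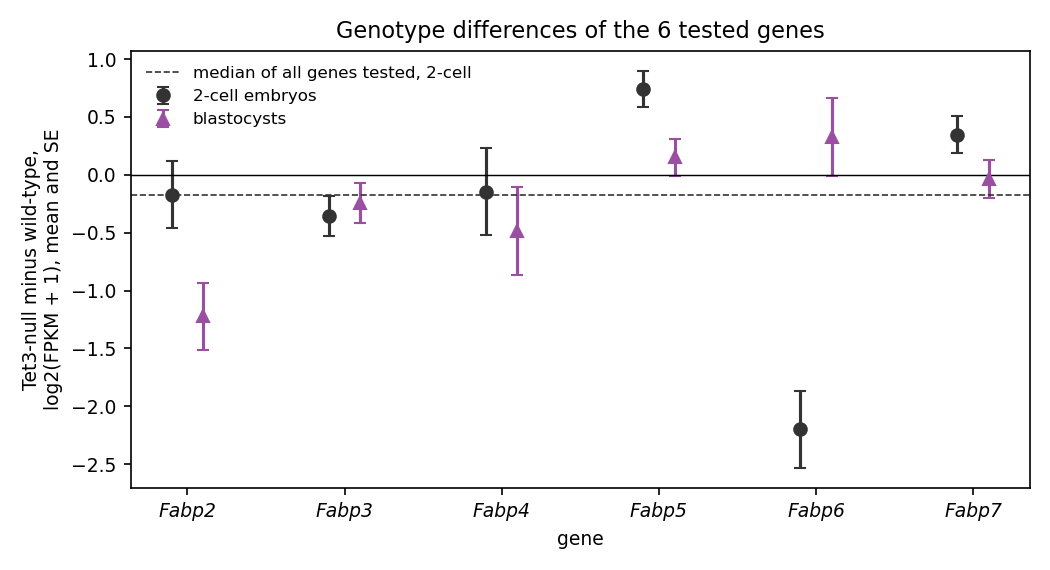
Tet3-null minus wild-type difference on the log2(FPKM + 1) scale for the 6 tested members at the 2-cell stage and in blastocysts, as points with bars of 1 SE, a solid line at 0 and a dashed line at the median of all genes tested at the 2-cell stage (−0.17). Fabp6 lies at −2.20 at the 2-cell stage and at 0.33 in blastocysts, Fabp5 lies at 0.74 and 0.15, and Fabp2 lies at −0.17 and −1.22.

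Fabp4, Fabp5 and Fabp2 lie on chromosome 3, while Fabp3 is on chromosome 4, Fabp1 on 6, Fabp7 on 10 and Fabp6 on 11. In RefSeq gene order Fabp5 and Fabp4 belong to one cluster, with the family genes Pmp2 and Fabp9 between them and Fabp12 just beyond Fabp4. In this cluster Fabp5 rose with stage and Fabp4 fell. Fabp9, between them, measured 40.3 and 11.6 FPKM in wild-type 2-cell libraries, 9.08 and 13.8 in Tet3-null ones and 5.94 to 12 in blastocysts, and its stage changes of −1.23 and −0.70 did not pass (adjusted p = 0.0785 and 0.28). Pmp2 reached at most 0.627 FPKM and Fabp12 at most 0.244 in any library, and both were under the filter.

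Beyond the cluster on the Fabp12 side, Impa1 (inositol monophosphatase), Zfand1 and Chmp4c rose with stage as Fabp5 did. The log2 changes were 2.19 and 3.40 for Impa1, 4.63 and 3.82 for Zfand1, and 3.06 and 3.07 for Chmp4c in wild-type and Tet3-null embryos. Snx16, next in order, had values of −0.35 and −0.61 that did not pass. Fabp4 thus fell in a stretch in which Fabp5, Impa1, Zfand1 and Chmp4c, none of them directly beside it, rose. Of the genes directly beside Fabp4, Fabp9 had stage changes that did not pass and Fabp12 was under the filter. Because 35.8 and 38.9% of all genes rose with stage in the 2 genotypes, neighbours that rise are common.

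**Figure D4:**
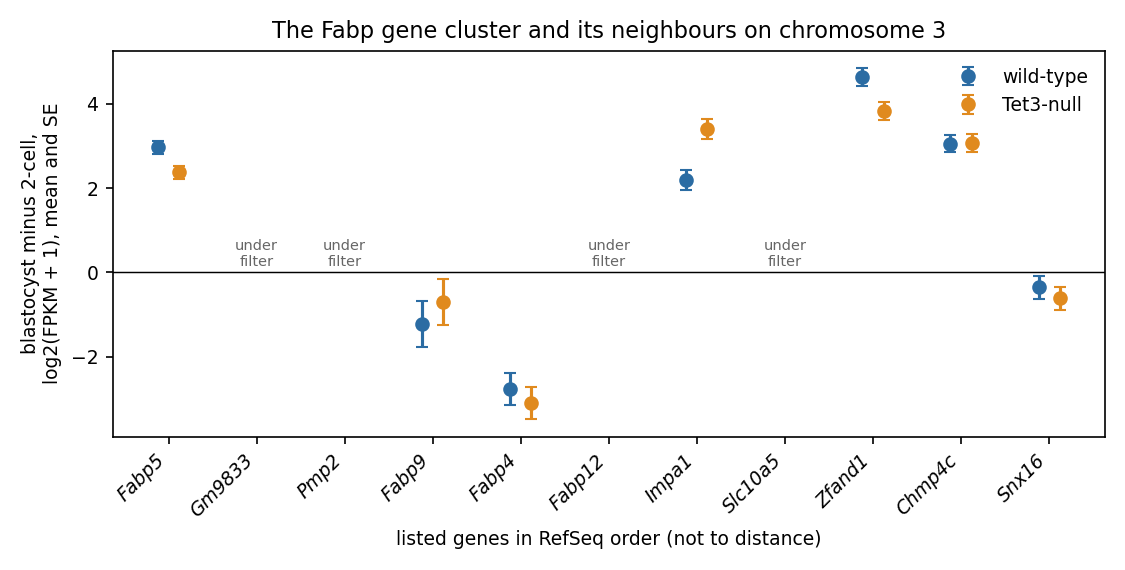
Blastocyst minus 2-cell change on the log2(FPKM + 1) scale for the tested genes of the Fabp5 to Snx16 stretch of chromosome 3, in gene order along the x axis (not to distance), with 1 marker and bars of 1 SE per genotype and genes under the filter marked as such. Fabp5, Impa1, Zfand1 and Chmp4c lie above 0, and Fabp4 lies at −2.75 in wild-type and −3.09 in Tet3-null embryos.

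Over the 8 libraries, log2 levels of Fabp3 and Fabp5 had a Pearson r of 0.972, Fabp3 and Fabp4 of −0.964, and Fabp4 and Fabp7 of 0.941. Fabp6 had r between −0.27 and 0.126 with the other members. These are descriptions over 8 points that fall into 2 stages, and they share library, depth and stage. By the same measure the genes most like Fabp3 were Myl6 (r = 0.9999), Ptgr1 (0.9998) and Capg (0.9997), but 833 genes had r over 0.99 with it. Those most like Fabp5 were Cox6c (0.9986), its chromosome 3 neighbour Zfand1 (0.9979) and Uqcrh (0.9974), out of 52 over 0.99. Fabp4 was most like 1700048O20Rik, Hmmr and Gm5141 (r from 0.9926 to 0.9931).

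The genes most like Fabp6 were 1700084E18Rik (r = 0.95), the immunoproteasome subunit gene Psmb10 (0.95) and the taste receptor gene Tas1r1 (0.9395). No gene reached 0.99 with Fabp6, in contrast to the 3 members above. Psmb10 measured 20.9 and 21.5 FPKM in wild-type 2-cell libraries and 9.48 and 10.5 in Tet3-null ones, then 11.8 and 11.6 in wild-type against 14.5 and 16.8 in Tet3-null blastocysts. Like Fabp6, it was lowest in Tet3-null 2-cell embryos and highest in wild-type 2-cell embryos. Psmb10 was picked for its r with Fabp6 over these same libraries, so the shared pattern adds nothing.

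Of the other proteins of the same fold, the Crabp and Rbp genes encode carriers of retinoids. Of 9 such relatives, counting Pmp2, Fabp9 and Fabp12, 8 were matched and 5 were tested, and 4 of these were called with stage in each genotype, against 74.3 and 74% of all genes: 1 rose and 3 fell. Crabp1 and Crabp2, which bind retinoic acid, fell with stage as Fabp4 and Fabp7 did, as did the retinol-binding gene Rbp7. Crabp1 went from 20.8 and 24.4 FPKM to 0.242 and 0.356 in wild type, Crabp2 from 22.9 and 18.5 to 0.773 and 0.274, and Rbp7 from 66.8 and 33.6 to 0 and 0.573. Rbp2, the intestinal retinol carrier, was listed at 0 in all 4 of the 2-cell libraries and at 48.4 to 77.4 FPKM in blastocysts. Rbp2, Rbp7 and Crabp2 reached 1 FPKM at 1 stage alone and passed the filter through it, so their stage calls rest partly on that selection. None of the 5 passed the test between genotypes by limma: Crabp1 at the 2-cell stage, the one with an unadjusted p below 0.05, measured 4.18 and 14.6 FPKM in Tet3-null libraries (adjusted p = 0.132).

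The genes that act around these carriers were described in 7 lists of lipid-handling genes, 164 entries in all with the fold relatives above and without Fabp1 to Fabp7, of which 126 were tested. In Tet3-null 2-cell embryos 6 of 126 were called (4.76%, against 2.72% of all genes), all lower, and 29 had an unadjusted p below 0.05, a share no higher than the 23.7% of all genes. With median-of-ratios scaling 0 of the 126 were called, and without Tet3-null 2-cell replicate 1 the count was 36. In blastocysts 0 of 126 were called by limma, with 8 at an unadjusted p below 0.05 against 5.46% of all genes, and for the change between stages 0 were called, with 24 against 14.4%. Over the 126 genes the median 2-cell difference was −0.29, against −0.17 over all genes.

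Of these 6, Lipa, the lysosomal acid lipase, measured 2.18 and 1.63 FPKM in wild-type against 0.0794 and 0.354 in Tet3-null 2-cell libraries (adjusted p = 0.0351). It reached 1 FPKM in no other group, so it passed the filter only through the group where it is high. Slc27a2, a fatty acid transporter and activating enzyme, measured 14.5 and 13.5 against 4.91 and 5.13 (adjusted p = 0.038). Both belong to the uptake and activation list, in which 2 of 21 were called. Etfa and Etfb, the 2 subunits of the flavoprotein that passes electrons from beta-oxidation to the respiratory chain, measured 33.2 and 32.7 against 17.4 and 17.9 for Etfa (adjusted p = 0.0291) and 52.1 and 53.3 against 31.2 and 24.1 for Etfb (adjusted p = 0.0372). Decr1, which serves the oxidation of unsaturated fatty acids, measured 3.29 and 2.89 against 1.03 and 0.320 (adjusted p = 0.0415), so that 3 of 29 beta-oxidation genes were called. Mlxipl, a glucose-responsive activator of fatty acid synthesis genes, measured 4.66 and 5.41 against 2.08 and 1.61 (adjusted p = 0.0372) and was 1 of 23 in the synthesis list. As with Fabp6, none of the 6 pairs of groups overlapped, as was so for 47.5% of all genes, 34.9% lower. The 6 were picked by their calls in these same libraries, so the lack of overlap adds nothing. Each call was lost in 9 to 13 of 15 alternatives.

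In the lists of storage and lipolysis (24 tested), nuclear receptors and coregulators (15) and bile acid genes (10), 0 were called between genotypes at the 2-cell stage by limma, with 7, 2 and 2 at an unadjusted p below 0.05, where 23.7% of all genes were. Of the 24 storage genes 1 had a positive 2-cell difference, with a median of −0.43, while 32.4% of all genes did. After median-of-ratios scaling 5 of 24 did, with a median of −0.25, when the median of all genes was 0, and without Tet3-null 2-cell replicate 2, 5 of 24 did, with a median of −0.39. Of the bile acid genes, the group of Fabp6's ligands, 6 of 10 had a positive difference, with a median of 0.12. That median was 0.30 with median-of-ratios scaling and 0.38 with quantile normalization, and it turned negative without Tet3-null 2-cell replicate 2 (−0.014) and without wild-type 2-cell replicate 2 (−0.056). Cidea, a lipid droplet protein, measured 5.36 and 4.29 FPKM in wild-type against 2.46 and 1.58 in Tet3-null 2-cell embryos and did not pass (adjusted p = 0.0609).

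**Figure D5:**
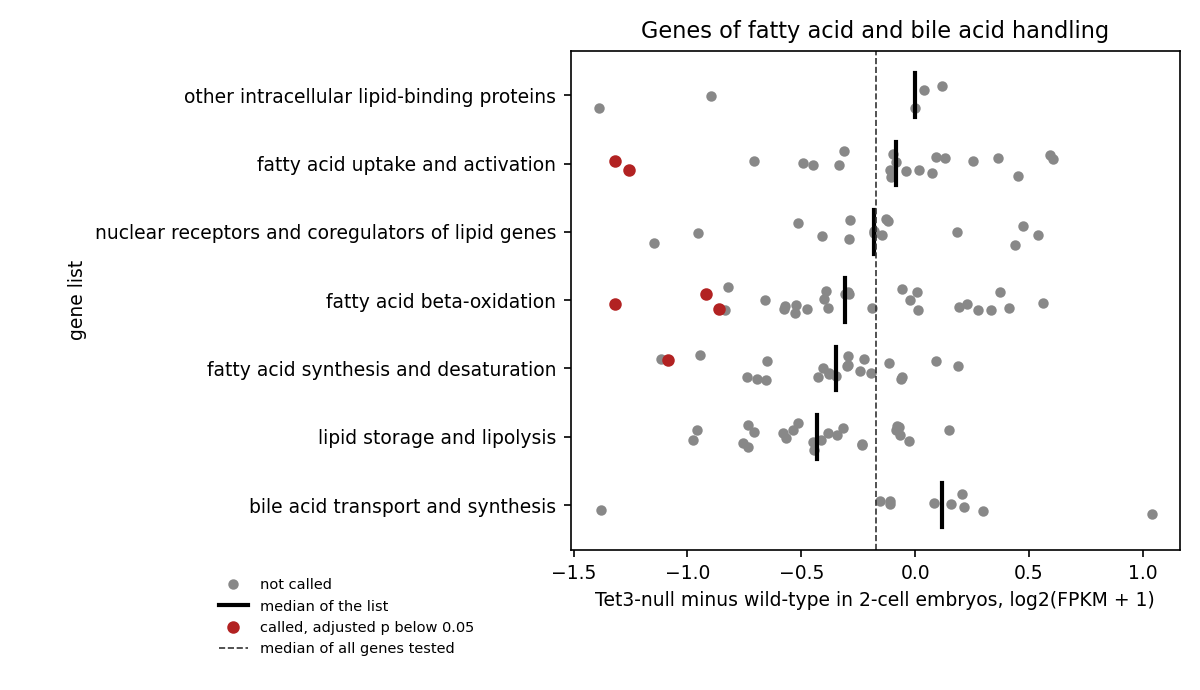
Tet3-null minus wild-type difference at the 2-cell stage on the log2(FPKM + 1) scale (x axis) for each tested gene of the 7 lipid lists (y axis), with called genes in red, the list median as a solid bar and the median of all genes tested (−0.17) as a dashed line. The 6 called genes lie at the left in 3 of the lists, and the storage list has the lowest median, −0.43.

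Between stages the lists behaved unevenly around the Fabp3 rise. In wild-type embryos 25 of 29 beta-oxidation genes rose and 3 fell, and in Tet3-null embryos 23 rose and 3 fell, against 35.8 and 38.9% of all genes that rose. The oxidation genes Hadh (3.15 and 1.14 to 247 and 229 FPKM in wild type), Acadvl (1.62 and 1.49 to 74.4 and 100.5) and Etfb (52.1 and 53.3 to 1415 and 1341) rose like Fabp3. In the storage list 13 of 24 rose and 6 fell in wild type. The droplet coat genes Plin2 and Plin3 rose, from 37.6 to 157 and from 13.3 to 130 FPKM in the mean. Plin1, the adipocyte droplet coat, fell from 3.27 and 3.32 FPKM and was listed at 0 in all blastocyst libraries. Plin1 passed the filter through the 2-cell stage alone, so its stage call rests partly on that selection.

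Pparg, the receptor Fabp4 partners in adipocytes, measured 3.97 and 1.88 FPKM in wild-type 2-cell libraries and 0.0357 and 0 in blastocysts (log2 change −1.89, adjusted p = 0.000515), and in Tet3-null embryos 4.66 and 3.86 and then 0.108 and 0.0569. Lpl, lipoprotein lipase, fell from 8.59 and 9.01 to 1.30 and 1.18 FPKM in wild type. Among all genes tested 35.8% rose and 38.4% fell in wild type, and the shares in several of the following lists lie near these. Of 15 nuclear receptor and coregulator genes 4 rose and 7 fell in wild type, with Ppargc1b and Rxrb among those that rose and Nr1h3, Ncoa2 and Med1 among those that fell. Ppard, the receptor linked to Fabp5, measured 3.12 and 2.22 FPKM in wild-type against 0.669 and 1.12 in Tet3-null 2-cell libraries (adjusted p = 0.0655) and 2.87 to 3.46 in blastocysts, and it is named here after its values were seen. Around Fabp6, the bile acid genes Cyp7b1 and Akr1d1 fell with stage in both genotypes, and 2 of 10 rose and 5 fell in wild type. In the uptake list 9 of 21 rose and 11 fell in wild type, with Acsl6 rising and Slc27a5 and Acbd5 falling. In the synthesis list 11 of 23 rose and 6 fell, with Elovl5 and Scd2 rising and Scd3 falling. Pparg, Ppargc1b, Rxrb, Cyp7b1, Akr1d1, Acsl6 and Slc27a5 reached 1 FPKM at 1 stage alone and passed the filter through it. Their stage calls therefore rest partly on that selection.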

How the data were processed

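The authors aligned reads to the mouse build mm9 and deposited 1 table of FPKM values per library for 23234 genes, for which Cufflinks 2.2.0, TopHat2 2.0.10 and Bowtie2 2.1.0 are named, per the submitters' processing notes. Which annotation and settings were used, and how reads that fit several similar genes were assigned, is not given in the sources used here. Per the labels' protocols, amplified cDNA was made from lysed frozen embryos (SMARTer low-input kit) and fragmented before a NEBNext library preparation without strand information, so reads of a gene and of an antisense partner cannot be told apart.

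From the deposited FPKM, log2(FPKM + 1) was fitted with limma 3.58.1 in R 4.3.3 over the 13549 genes that reached 1 FPKM in 2 libraries or more, with 4 group means over all 8 libraries, an intensity trend, two-sided tests and Benjamini-Hochberg adjustment over all genes tested. A gene was called at an adjusted p below 0.05. Of the 126 list genes tested, 34 passed the filter through 1 stage alone, as 3564 of all genes tested did, so their calls between stages rest partly on the filter. A difference on this scale understates the change of genes with low FPKM. The FPKM files hold no read totals, so no counting interval is given. No values of the libraries of a group were identical above 0. The code was tested on simulated data. The 7 members and the 7 lipid lists were chosen with earlier results of these data known, so no list is independent evidence of a direction. Of 164 list entries, 1 (Rbp5) found no row and 6 were matched through a synonym.

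All members, Tet3, the rows whose names begin with Fabp and the other proteins of the same fold are named, except 1 that is not reported here. From each other list, up to 4 called genes with the smallest adjusted p per comparison could be named, and up to 2 genes with the highest mean where a list had no call between genotypes. Likeness is the Pearson r of log2(FPKM + 1) over 8 libraries, for members with a mean of at least 5 FPKM in a group, and the 3 highest genes are named. Alternatives were another pseudocount (0.1), no filter, median-of-ratios and quantile scaling, a fit of the compared groups alone, a replicate block, no intensity trend, and leaving out each library. Promoters and gene order come from RefSeq on GRCm38.p6, which is not the build of the files, and shared 50-base stretches from the longest coding transcript of each gene in GENCODE.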

Additional observations from a re-analysis of the deposited data

How the results depend on the processing

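Of 444 values of the members under alternatives, 410 kept their direction and their side of the threshold, 17 lost a call, 8 gained one and 9 changed sign, all of the last among differences that were not called. Fabp4 at the 2-cell stage changed from −0.14 to 0.10 with median-of-ratios scaling, 0.028 with quantile normalization, and it ranged from −0.48 to 0.19 when 1 library was left out, the latter without Tet3-null 2-cell replicate 2. With 1 library left out, the blastocyst difference of Fabp4 ranged from −0.99 to 0.018 and its change between stages from −0.84 to 0.16, the latter values without wild-type blastocyst replicate 2. The change between stages of Fabp3 (0.11) became −0.069 with median-of-ratios scaling and −0.12 with quantile normalization, and ranged from −0.067 to 0.29 with 1 library left out, negative without Tet3-null 2-cell replicate 1 or wild-type 2-cell replicate 2. The stage rise of Fabp6 in Tet3-null embryos lost its call in 5 alternatives, and its fall in wild type lost it with a pseudocount of 0.1. The causes were not tested.

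The 6 lipid genes called at the 2-cell stage became 2 with a pseudocount of 0.1, 2 with quantile normalization, 0 with median-of-ratios scaling and 0 with the compared groups alone. Leaving out 1 library gave 0 to 36: 36 without Tet3-null 2-cell replicate 1, 7 without replicate 2 of that group and 0 without any of the other 6. The change between stages, with 0 calls, gave 0 to 19, with 19 and 1 without these same 2 libraries. It has no fit of the compared groups alone. Over all genes the 2-cell calls, 83 higher and 285 lower, became 83 and 80 with median-of-ratios scaling and 94 and 104 with quantile normalization. Of the named list genes and Tet3, 848 of 915 values kept their call, 67 lost it and 0 changed sign.

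With the replicate number as a block, 0 of the lipid genes and 7 of all genes were called at the 2-cell stage, and Fabp6 had an adjusted p of 0.13. The deviations of same-numbered libraries from their group means had r = −0.08 at the 2-cell stage and 0.02 in blastocysts. From 1 such value per stage it cannot be told what same-numbered libraries shared, and the labels do not state it. With 2 libraries per group and unknown read totals, values under 1 FPKM are the least certain.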
